A study of Homo sapiens with 6 samples.

Results

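The genes described here are 10 regulators of proteolysis at the cell surface and in the surrounding matrix, measured in KM12, an established human colorectal cancer cell line. They are 4 matrix metalloproteases (MMP14, MMP15, MMP24 and MMP28), 4 inhibitors of such enzymes (TIMP1, TIMP2, TIMP3 and RECK), the urokinase plasminogen activator PLAU and its receptor PLAUR. They were chosen by name, with earlier results of these data known. All 10 matched a row among the 27134 genes of the deposited table and passed the filter on low values. RNA was sequenced from 3 libraries of cells made to overexpress CDO1 and from 3 libraries of mock control cells, all from passages 10 to 15. CDO1 encodes cysteine dioxygenase type 1, an enzyme that oxidises cysteine. The labels do not give the vector, say whether the CDO1 cells are 1 clone or a pool, or tell if replicates were grown apart. The p-values therefore rest on variation among 6 libraries that may be technical.

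Matrix metalloproteases are zinc-dependent endopeptidases that cleave collagens and other matrix and surface proteins. They are made as inactive precursors, and the membrane-type enzymes are activated inside the cell by proprotein convertases such as furin. TIMPs bind the active site of the enzymes, and TIMP2 also joins MMP14 in the complex that activates MMP2. PLAU, held at the surface by PLAUR, converts plasminogen to plasmin, which degrades fibrin and can activate some metalloproteases. In colorectal tumours much of the metalloprotease and urokinase RNA comes from stromal cells, which a pure cell line lacks.

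The sequence upstream of MMP14 and of MMP24 is shown because these 2 membrane-type enzymes moved in opposite directions. Both are from RefSeq (GRCh38.p14, plus strand), start 250 bases before the RefSeq start site and end at the last base before the first exon of the GENCODE 29 annotation. Capitals mark the Sp1-type letters GGGCGG, read on either strand.
MMP14, chr14:22836335-22836556: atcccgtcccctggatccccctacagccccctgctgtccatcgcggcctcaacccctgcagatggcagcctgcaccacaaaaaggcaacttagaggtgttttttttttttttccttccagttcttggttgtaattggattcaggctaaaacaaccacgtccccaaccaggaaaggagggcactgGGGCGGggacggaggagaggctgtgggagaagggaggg
MMP24, chr20:35226440-35226653: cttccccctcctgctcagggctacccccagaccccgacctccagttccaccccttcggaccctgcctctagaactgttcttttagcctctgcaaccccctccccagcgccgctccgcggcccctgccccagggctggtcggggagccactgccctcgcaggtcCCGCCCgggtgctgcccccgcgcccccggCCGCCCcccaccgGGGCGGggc
The MMP14 stretch held 1 such match in 222 bases and the MMP24 stretch held 3 in 214, at a GC content of 56.3% and 75.2%. Neither held the AP-1 letters TGANTCA, the ETS-type letters AGGAAG or the TATA letters TATAAA on either strand. Of 35116 RefSeq promoters, 42.6% held GGGCGG in the 250 bases before the start, 28.7% held AGGAAG, 10.7% TATAAA and 6.57% TGANTCA.

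For the plasminogen activator and its receptor, 30 bases around a single match are shown, because factors that read these letters are described with them further on. Capitals mark AGGAAG in PLAU and the AP-1 letters in PLAUR, and each piece is written on the strand of its gene.
PLAU, chr10:73910899-73910928, plus strand: caggtgcatgggAGGAAGcacggagaattt
PLAUR, chr19:43670337-43670366, minus strand: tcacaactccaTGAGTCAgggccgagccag
The first base of the match is at position -221 from a RefSeq start of PLAU and -186 from that of PLAUR. Both windows lie within annotated exons of these genes, which have other starts upstream. A match is a description of letters and shows no binding.

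Reads assigned to genes totalled 17516640 to 22198173 per library. The introduced gene, CDO1, had 2333 to 2484 normalised counts where it was overexpressed, against 68.1 in mock replicate 1 and 0 in the other mock libraries. Here a normalised count is the number of reads of a gene divided by a size factor of its library. The epithelial keratin KRT8 was at 83712 to 130882 normalised counts and the adhesion protein EPCAM at 8228 to 10475, so the libraries carried the epithelial markers of a colorectal line. Leukocyte markers summed to 8.27 to 18.8 normalised counts over the 3 of 6 that were measured. Endothelial markers summed to 28.3, 31.7 and 127 in mock replicates 2, 3 and 1 and to 61.1 to 84.3 in the CDO1 libraries, with all 5 measured. In mock replicate 1 the sum came from KDR (47.5), TEK (44.8) and VWF (34.1), while PECAM1 was at 0 and CDH5 at 0.896. KDR and TEK were far lower in the other mock libraries, and VWF was only somewhat lower. Mock replicate 1, which also held reads of CDO1, thus stood apart. Without it MMP14 was at -0.93, MMP24 at 0.60 and PLAU at -0.94 on the log2 scale, all still past the threshold. Of the 5 endothelial markers PECAM1 was called higher with CDO1, at 6.30 against 1.40 normalised counts (adjusted p = 0.0259 in limma). The other 4 were not called. Of 7 fibroblast markers 2 were measured and the others were not analysed here. None of the markers measured was at 0 in every library. Their sum was 204 to 293 in mock and 130.4 to 151 in CDO1 libraries, and COL1A1, a collagen chain, fell 2.19-fold (adjusted p = 1.69e-06). PDGFRB, the other one measured, was at 39.5 ± 0.968 with CDO1 and 35.2 ± 21.1 in mock (SD, n = 3; adjusted p = 0.497). The part of other cells in the results was not tested.

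MMP14 and PLAU fell in cells with CDO1 and MMP24 rose. The other 7 genes did not pass the test. With 3 of 10 called by limma at an adjusted p of 0.05, the share was near the 24.0% of all 21775 genes tested that were called, and below the 36.3% among genes with a mean of at least 100 normalised counts. The median log2 fold change (the mean of log2 values in CDO1 libraries less that in mock, with 1 added to each normalised count) was -0.13 for the 10 genes and -0.0035 for all genes tested. In 6 of the 10 genes the groups did not overlap, against 37.1% of all genes tested. In bulk RNA, fewer cells that express a gene and less RNA per cell cannot be told apart.

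**Figure D1:**
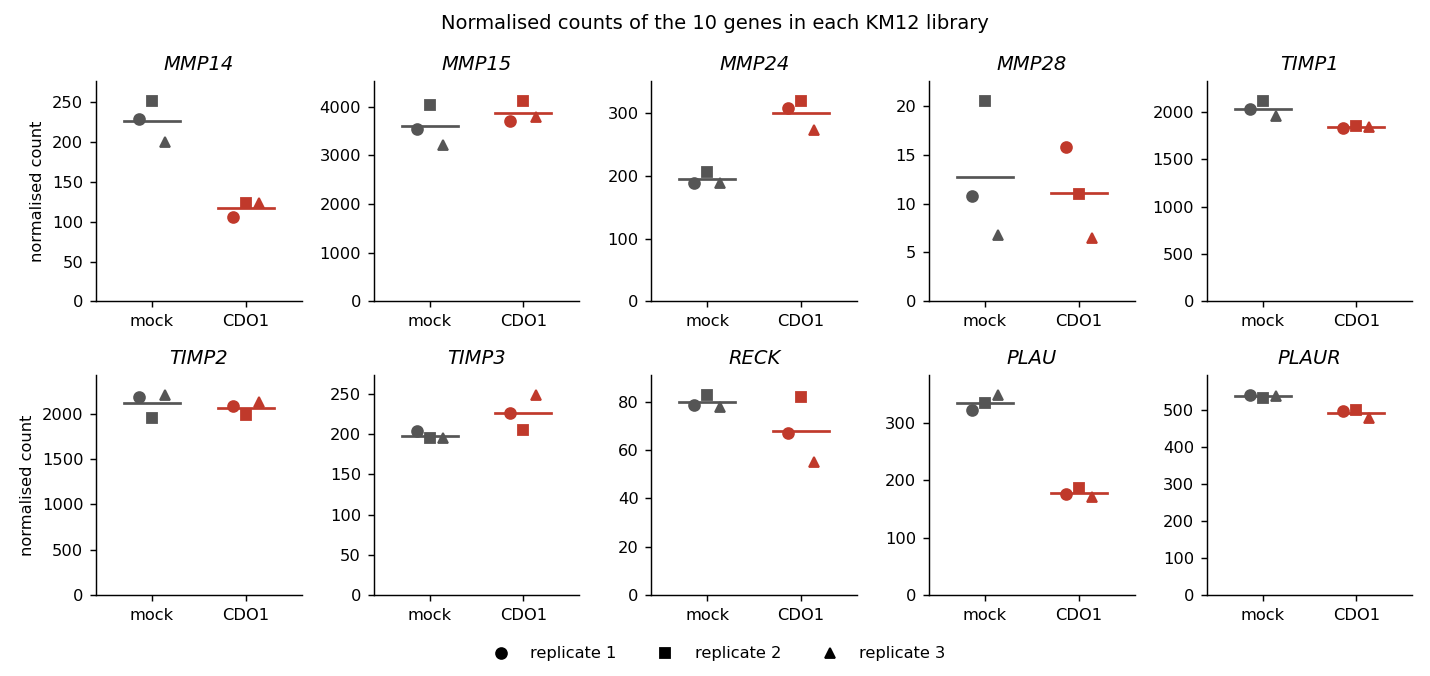
Normalised counts of each gene (vertical axes, from 0) in the 3 mock libraries (grey) and the 3 CDO1 libraries (red), with a shape for each replicate and a bar at the group mean. MMP14 and PLAU lie lower and MMP24 higher in every CDO1 library than in any mock library, while MMP15, MMP28, TIMP2 and RECK overlap.

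MMP14, or MT1-MMP, is the membrane-anchored collagenase that also activates pro-MMP2 (ENSG00000157227, GRCh38 chr14:22836557-22849027, plus strand). Its normalised counts were 229, 252 and 200.2 in mock replicates 1, 2 and 3 and 106, 124 and 124 in the CDO1 libraries, from 107 to 258 reads. Every CDO1 library was below every mock library. Mean levels of 227 ± 25.8 in mock cells and 118 ± 10.6 in CDO1 cells (SD, n = 3) made it 1.93-fold lower. The log2 fold change was -0.94 ± 0.12 (SE), with an adjusted p of 4.11e-06 in limma. Of all genes tested, 8.0% had a lower log2 fold change.

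MMP24, or MT5-MMP, is a membrane-type enzyme best known from the nervous system, where it sheds cadherins (ENSG00000125966, chr20:35226654-35277000, plus strand). It stood at 189, 207 and 189 normalised counts in mock replicates 1, 2 and 3 and at 309, 319.7 and 274 in CDO1 replicates 1, 2 and 3. The lowest CDO1 library, replicate 3, was still above the highest mock library. Its mean was 301 ± 24.0 against 195 ± 10.2 (SD, n = 3), 1.54-fold higher, with a log2 fold change of 0.62 ± 0.10 (SE; adjusted p = 5.20e-05). On the opposite strand, MMP24OS shares 799 of the 4414 exon bases of MMP24, and the labels do not say whether counting used strand. MMP24OS was at 557 ± 86.8 with CDO1 and 569.7 ± 20.6 in mock (SD, n = 3; log2 fold change -0.05, adjusted p = 0.781).

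MMP15, or MT2-MMP, a close relative of MMP14 with a like domain plan, was the most abundant metalloprotease of the set (ENSG00000102996, chr16:58025566-58046901, plus strand). Its normalised counts were 3543, 4029.9 and 3209 in mock replicates 1, 2 and 3 and 3712, 4112 and 3776 in the CDO1 libraries, and the groups overlapped. The means were 3866 ± 215 with CDO1 and 3594 ± 413 in mock (SD, n = 3). The log2 fold change was 0.11 ± 0.07 (SE; 95% confidence interval -0.03 to 0.25; adjusted p = 0.276). With each library's trend with GC content removed it was 0.30 with an adjusted p of 8.10e-07, and without mock replicate 2 it was 0.20 with an adjusted p of 0.0122.

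The longest transcript of MMP15 has a GC content of 66.0%, the highest of the 10, against 44.2% for RECK, the lowest. The rank correlation of a library's deviation with GC content, over 10926 genes, ran from -0.34 in CDO1 replicate 1 to 0.52 in mock replicate 2. For MMP14 and MMP15 alike, mock replicate 2 was the highest mock library and mock replicate 3, at a rho of -0.24, the lowest. The same order held for MMP24, MMP28, TIMP1 and RECK, the gene of lowest GC content, and not for TIMP2, TIMP3, PLAU or PLAUR. With the trend removed the log2 fold change was -0.86 for MMP14, -0.89 for PLAU and 0.72 for MMP24, all still past the threshold.

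MMP28, epilysin, is a secreted enzyme of epithelia (ENSG00000271447, chr17:35756249-35795707, minus strand). It was scarce, with 6 to 21 reads per library and normalised counts of 6.43 to 15.8 with CDO1 and 6.79 to 20.5 in mock. The groups overlapped throughout. Its log2 fold change of -0.13 had a 95% confidence interval from -1.0 to 0.73 (adjusted p = 0.864).

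**Figure D2:**
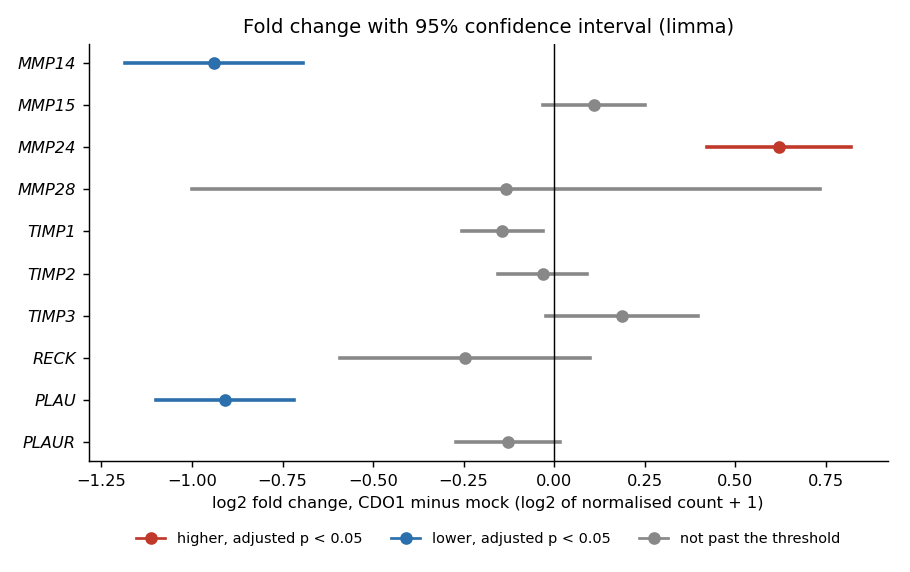
Log2 fold change of each gene (horizontal axis, positive where CDO1 cells were higher) with its 95% confidence interval, in red or blue where the adjusted p is under 0.05 and in grey otherwise. MMP14 (-0.94) and PLAU (-0.91) lie left of 0 and MMP24 (0.62) right of it, and the interval of MMP28 is the widest.

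Among the 4 inhibitors 0 passed the test in limma or DESeq2, where limma called 24.0% of all genes tested. Of the 4, 1, TIMP1, had an unadjusted p under 0.05 (0.0148 in limma), as did 7452 of the 21775 genes tested. TIMP1, a secreted inhibitor that is abundant in tumours (ENSG00000102265, chrX:47582313-47586789, plus strand), came nearest to the threshold. Its normalised counts were 2029.8, 2114 and 1953 in mock and 1831, 1849 and 1837 with CDO1, and the groups did not overlap. The means were 1839 ± 9.18 and 2032 ± 80.9 (SD, n = 3), with a log2 fold change of -0.14 ± 0.05 (SE; 95% confidence interval -0.26 to -0.03; adjusted p = 0.0589). In edgeR on the recovered reads the adjusted p was 0.0403. Without mock replicate 3 it was 0.0252 in limma at a log2 fold change of -0.17. With the GC trend removed the log2 fold change was -0.08, at an adjusted p of 0.185 in limma.

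TIMP2, which both inhibits MMP14 and bridges it to pro-MMP2 (ENSG00000035862, chr17:78852977-78925387, minus strand), stood at 2186, 1952 and 2208 normalised counts in mock and at 2085, 1986 and 2133 with CDO1. These values overlapped, and the log2 fold change was -0.03 with a 95% confidence interval of -0.15 to 0.09 (adjusted p = 0.763). TIMP3, which binds to the matrix and also inhibits ADAM proteases (ENSG00000100234, chr22:32801701-32863043, plus strand), was at 204, 195 and 196 in mock and at 227, 205 and 249 with CDO1. The groups were parted by less than 1 normalised count, and its log2 fold change of 0.19 (95% confidence interval -0.02 to 0.40) had an adjusted p of 0.199.

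RECK, a membrane-anchored inhibitor of MMP14 and other enzymes (ENSG00000122707, chr9:36036433-36124451, plus strand), was at 78.9, 82.9 and 78.1 normalised counts in mock. With CDO1 it was at 67.1, 82.1 and 55.1, so that replicate 2 lay among the mock libraries and replicates 1 and 3 below them. The log2 fold change was -0.25 (95% confidence interval -0.59 to 0.10; adjusted p = 0.320).

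PLAU, the urokinase protease (ENSG00000122861, chr10:73909177-73917497, plus strand), had 322, 334 and 348 normalised counts in mock replicates 1, 2 and 3 and 177, 187 and 170 in the CDO1 libraries. The groups were far apart relative to their spread, with means of 178 ± 8.73 and 335 ± 13.4 (SD, n = 3), 1.88-fold lower with CDO1. The log2 fold change was -0.91 ± 0.09 (SE; adjusted p = 2.29e-07 in limma), and 8.43% of genes tested had a lower one. C10orf55, on the opposite strand, shares 916 of the 2950 exon bases of PLAU, and no library gave it more than 4.53 normalised counts.

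PLAUR, the lipid-anchored urokinase receptor (ENSG00000011422, chr19:43646095-43670547, minus strand), was at 541, 533 and 537 normalised counts in mock and at 498, 499 and 478 with CDO1. Its groups did not overlap, yet the step was small, from 537 ± 4.4 to 492 ± 12.2 (SD, n = 3). The log2 fold change of -0.13 (95% confidence interval -0.27 to 0.02) had an adjusted p of 0.205. That PLAU was called and PLAUR was not does not show that the 2 differ, which was not tested.

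Levels of different genes were compared per kilobase of exon, with all annotated exons of a gene joined. In mock cells TIMP1 led with 1319 ± 52.5 normalised counts per kilobase, before MMP15 (813 ± 93.4) and TIMP2 (376 ± 25.2; SD, n = 3). PLAUR followed at 120.5 ± 0.987 and PLAU at 113 ± 4.54, then MMP14 at 50.9 ± 5.77, MMP24 at 44.2 ± 2.32 and TIMP3 at 43.1 ± 1.12, which overlapped as neighbours. RECK (13.2) and MMP28 (4.43) were last.

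With CDO1 the first 4 places were the same, and MMP24 came next at 68.1 ± 5.44 normalised counts per kilobase, overlapping with PLAU at 60.3 ± 2.96. MMP14 stood behind TIMP3, at 26.4 ± 2.37 against 49.3 ± 4.80 (SD, n = 3). In mock cells the ranges of MMP14 and MMP24 overlapped, but within each library MMP24 was below MMP14. The ratio of MMP24 to MMP14 was 0.834, 0.831 and 0.954 in mock replicates 1, 2 and 3. With CDO1 MMP24 was above MMP14 in every library, at ratios of 2.96, 2.61 and 2.23. The order in each group was the same when the length of the longest transcript was used.

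**Figure D3:**
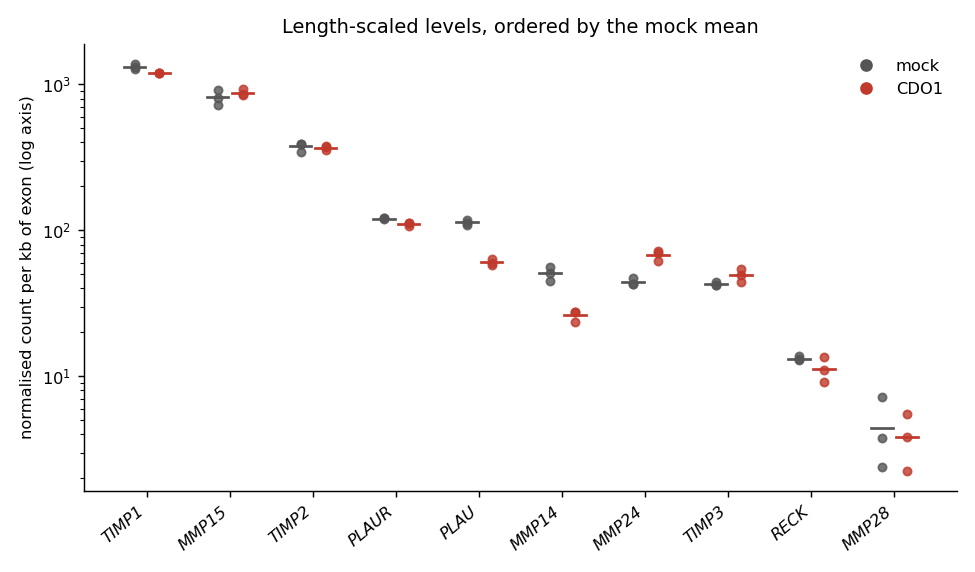
Normalised count per kilobase of exon on a log axis for each gene, ordered by the mock mean, with a point for each library (mock grey, CDO1 red) and a bar at the group mean. TIMP1, MMP15 and TIMP2 lie above the rest in both groups, and the red points of MMP14 and PLAU lie below the grey ones while those of MMP24 lie above.

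Of the summed level per kilobase of the 5 membrane-type enzymes measured (MMP14, MMP15, MMP17, MMP24 and MMP25), MMP15 made up 84.3% ± 0.588 in mock and 88.5% ± 0.246 with CDO1 (SD, n = 3). The share of MMP14 was 5.27% ± 0.0792 in mock and 2.67% ± 0.201 with CDO1, and that of MMP24 was 4.60% ± 0.352 and 6.89% ± 0.455. MMP17, a lipid-anchored enzyme, made up 5.34% ± 0.812 and 1.42% ± 0.0858. These shares are descriptions with no test, and MMP16 was not analysed here.

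The ratio of MMP14 to TIMP2, per kilobase, was 0.132, 0.163 and 0.114 in mock replicates 1, 2 and 3 and 0.0639, 0.0786 and 0.0734 with CDO1, 1.90-fold lower and with no overlap. PLAU to PLAUR was 0.941 ± 0.0411 in mock and 0.547 ± 0.0174 with CDO1 (SD, n = 3). PLAU to SERPINE2, the nexin that inhibits urokinase and thrombin, was 0.760 ± 0.0225 and 0.759 ± 0.0913, and overlapped. The height of each ratio depends on the exon lengths used, while its contrast between groups does not.

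**Figure D4:**
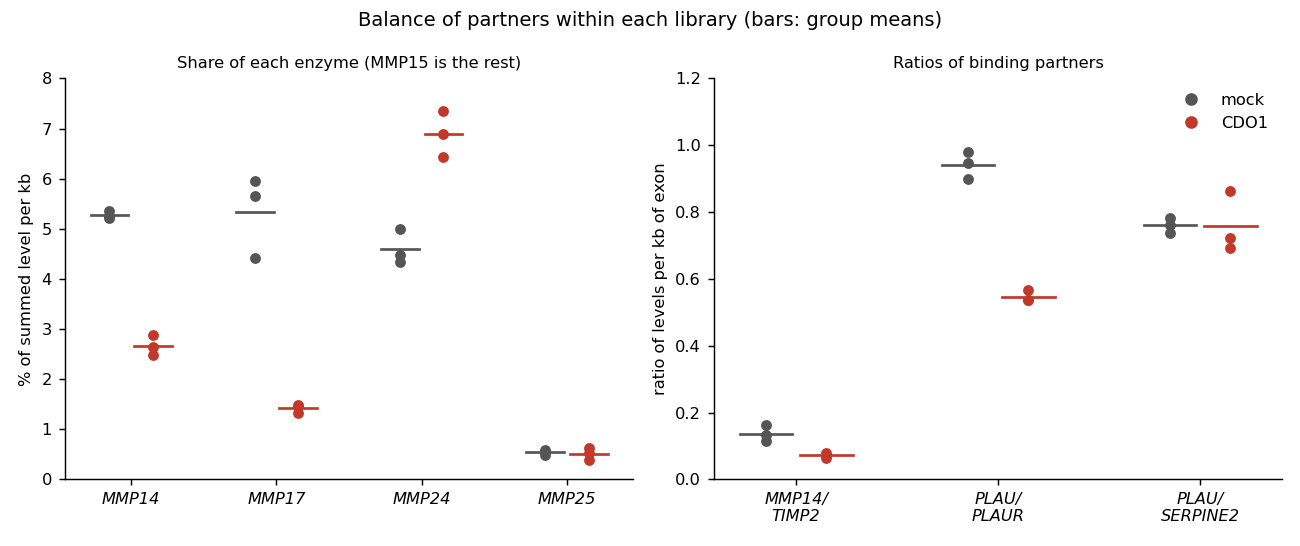
Left, share of each enzyme in the summed level per kilobase of 5 membrane-type metalloproteases, where MMP15 holds the remainder; right, ratios of levels per kilobase of pairs that bind each other as proteins. Points are libraries (mock grey, CDO1 red) and bars are group means: MMP14 and MMP17 take a lower share and MMP24 a higher one with CDO1, and PLAU/SERPINE2 overlaps between groups.

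Other matrix metalloproteases were mostly scarce in these cells. Of the 19 on the list 12 had a row and 9 were tested, and 7 of the 12 had at most 10 normalised counts in every library. MMP17 was the 1 called, and it fell 3.71-fold. Of all genes tested 24.0% were called, and 12.7% were called lower. Its normalised counts were 229, 245 and 152 in mock replicates 1, 2 and 3 and 50.3, 61.3 and 56.9 with CDO1, with a log2 fold change of -1.85 ± 0.16 (SE; adjusted p = 3.45e-08). The stromelysin-like MMP11 stood at 68.5 ± 16.5 against 90.9 ± 7.47 (SD, n = 3), with an adjusted p of 0.0760, and of 0.0146 without CDO1 replicate 2. MMP7, matrilysin, an enzyme of tumour epithelium and a Wnt target, was at 13.3 ± 2.10 against 19.7 ± 3.39 (adjusted p = 0.221). The gelatinases MMP2 and MMP9 did not exceed 2.96 normalised counts in any library. The list's median log2 fold change was -0.54.

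Of 11 other plasminogen system genes tested, 2 rose and 4 fell, where 11.3% and 12.7% of all genes tested did so. The 2 that rose were S100A10 and ANXA2, which together form a surface complex that binds plasminogen. S100A10, at 9731 ± 143 normalised counts against 5615 ± 411 in mock (SD, n = 3), rose 1.73-fold (adjusted p = 9.34e-10), and ANXA2, at 30889 ± 426 against 24854 ± 181, rose 1.24-fold (adjusted p = 5.58e-05). Among those that fell were 3 serpins. SERPINE2 fell 1.87-fold, from 1327 ± 46.6 to 709.8 ± 48.7 (adjusted p = 1.97e-09), SERPINA5, the protein C inhibitor, 3.26-fold to 15.2 ± 4.36, and SERPINF2, the plasmin inhibitor, 1.99-fold to 22.5 ± 3.65 (SD, n = 3). PLAT, the tissue-type activator, was at 136 ± 5.63 against 127 ± 2.11 (adjusted p = 0.581). The list's median log2 fold change was -0.03.

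Of 13 tested activators and other inhibitors of metalloproteases, 5 rose and 1 fell, against 11.3% and 12.7% of all genes tested, with a median log2 fold change of -0.11. The proprotein convertases FURIN, PCSK6 and PCSK7 rose 1.36-fold, 1.38-fold and 1.26-fold, and PCSK5 fell from 170.5 ± 7.53 to 131 ± 4.66 normalised counts (SD, n = 3). FURIN was the most abundant of these, at 5402 ± 397 against 3960.4 ± 380 (SD, n = 3; adjusted p = 2.71e-05). The call of PCSK5 (adjusted p = 0.0142 in limma) was lost in DESeq2 (0.0676). TIMP4, the fourth TIMP, rose 2.11-fold from 25.1, 37.1 and 29.4 in mock to 64.1, 63.5 and 65.2 with CDO1 (adjusted p = 0.000389). The matrix glycoprotein THBS1, which binds and restrains some metalloproteases, rose 1.47-fold. BSG, the metalloprotease inducer basigin, was at 18671 ± 607 against 20103 ± 1132 (adjusted p = 0.171, and 0.0437 without mock replicate 3).

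In the list of membrane-anchored serine proteases and their inhibitors, 7 of 13 tested rose and 0 fell in limma, where 11.3% and 12.7% of all genes tested did so. The list is wider than its name and also holds the secreted proteases PRSS22 and HGFAC, the growth factor HGF and its receptor MET. The median log2 fold change of the list was 0.19. Unadjusted, HGFAC had a p of 0.0134 in the other direction, from 5.33 to 1.39 normalised counts, and it was the only 1 of the list to be lower at an unadjusted p under 0.05. Its adjusted p was 0.0546 in limma, 0.0445 with a pseudocount of 5 and 0.0471 without CDO1 replicate 2. edgeR with TMM tested 9 of the list and DESeq2 10, HGFAC not among them, and both called 7 higher and 0 lower. ST14, the epithelial protease matriptase, which can activate pro-urokinase, rose 1.22-fold to 15554 ± 419 normalised counts, and its inhibitor SPINT1 rose 1.31-fold to 5558 ± 117 (SD, n = 3). TMPRSS3 rose 1.95-fold and PRSS22 1.40-fold. SPINT2, another inhibitor, rose 1.14-fold, and its adjusted p was 0.0647 without CDO1 replicate 2, 0.0522 without CDO1 replicate 3 and 0.0903 without mock replicate 1. The epithelial marker list moved in the same direction, with 7 of its 8 members higher. The part of a general shift in epithelial genes was not tested.

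**Figure D5:**
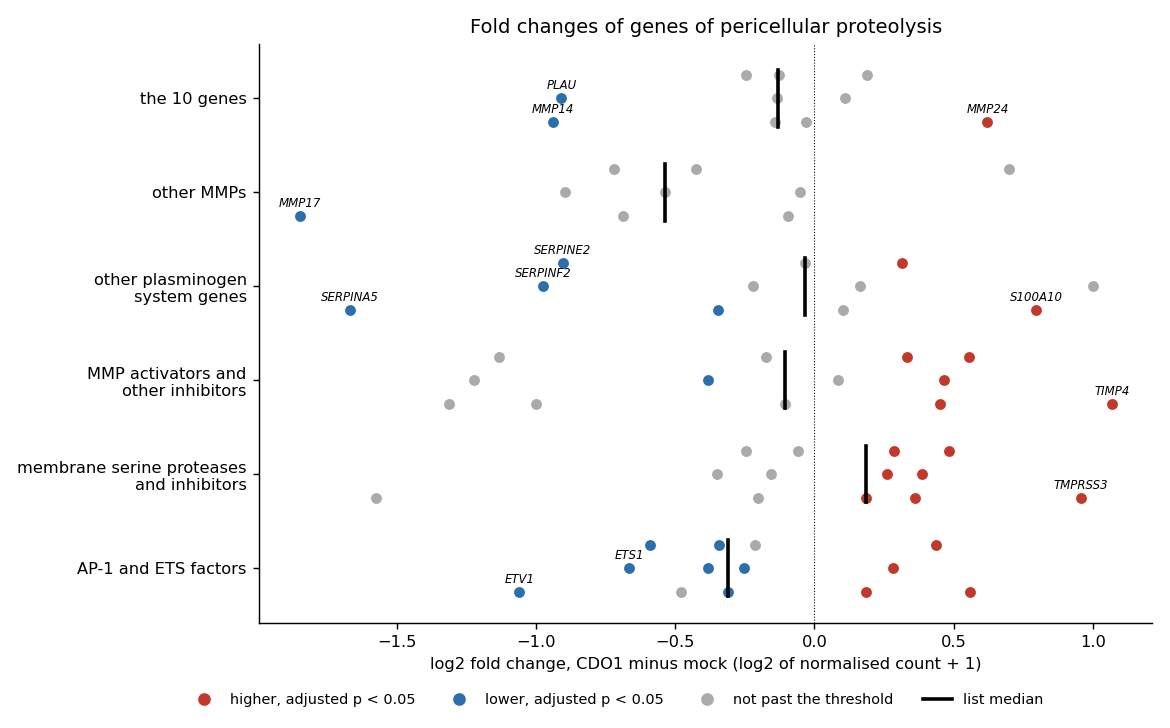
Log2 fold change (horizontal axis, positive where CDO1 cells were higher) of each tested gene of 6 groups, the 10 genes and 5 lists, in red or blue where the adjusted p is under 0.05 and in grey otherwise, with a black bar at each list's median. MMP17 (-1.85) lies farthest left among called genes and TIMP4 (1.07) farthest right. The medians run from -0.54 for other metalloproteases to 0.19 for the list of membrane serine proteases and their inhibitors.

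AP-1 and ETS transcription factors are known to act on metalloprotease and urokinase genes, and 4 of 13 rose while 7 fell, with a median log2 fold change of -0.31. Of all genes tested 24.0% were called, and 36.3% of those with a mean of at least 100 normalised counts. DESeq2, like the authors' deposited table, called 3 of the 13 higher and 5 lower. All 3 PEA3 factors fell: ETV1 2.09-fold, from 710.3 ± 73.0 to 339 ± 1.76 normalised counts, ETV5 1.5-fold and ETV4 1.27-fold (SD, n = 3; adjusted p = 3.55e-09 for ETV1 in limma). ETS1 fell 1.59-fold and the AP-1 subunit FOSL1 1.24-fold. ETS2 rose 1.35-fold, the epithelial factor ELF3 1.47-fold and the AP-1 subunit FOSL2 1.21-fold. The remaining calls, JUN and JUND lower and JUNB higher, were less firm. Leaving out 1 library ended that of JUN for every library but mock replicate 3 (adjusted p up to 0.251), that of JUNB for every library but mock replicate 2 (up to 0.196) and that of JUND for CDO1 replicate 1 (0.0558). The call of JUND was also lost with the GC trend removed (0.0651). The AP-1 letters shown for PLAUR and the AGGAAG of PLAU are matches for such factors. MMP14 held neither of these exact sets of letters in the window shown, and other spellings of such sites were not searched. PLAUR also held an ETS-type match, at position -15, and TIMP1 held one at -87, and neither gene was called. Another RefSeq window of PLAU held no AP-1 or ETS-type match. No binding was measured here.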

How the data were processed

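Total RNA went into NEBNext Ultra RNA libraries, per the labels' protocols, which do not mention strand. Per the submitters' processing notes, STAR 2.5.1b, DESeq2 1.10.1 and GRCh38 were used by the authors. Which program counted reads, and on which annotation, is not given in the sources used here. Deposited signal values are gene counts that the authors divided by a size factor per library. Reads were recovered from the steps between low values, and 100% of values came out whole to within 0.001. The log2 fold changes, p-values and adjusted p-values of the authors are from their deposited comparison, per the file headers.

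The test was limma 3.58.1 (trend) in R 4.3.3 with a pseudocount of 1 before the log2 and a minimum mean normalised count of 1, over all 6 libraries, two-sided, with Benjamini-Hochberg adjustment over all genes and a threshold of 0.05. This scale understates the change of low genes. Fold values are ratios of mean normalised counts. edgeR 4.0.16 (5423 genes called with TMM) and DESeq2 1.42.0 on the recovered reads were alternatives, as were filters, pseudocounts, scalings, removal of the GC trend (lowess, span 0.3), a replicate block and each library left out. The fits were tested on simulated data, which held no GC trend and far fewer changed genes than were called here.

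The 10 genes and the lists were chosen with earlier results of these data known. Of 73 list entries 63 had a row and 59 were tested, and the values of 1 are not reported here. The rule named the 10 genes, CDO1, the 4 genes of smallest p in each list and the 3 abundant genes most like MMP14 and PLAU, and let other list genes be named too. Names came from a reference table that holds 26577 of the identifiers, and coordinates, exon lengths and GC content from GENCODE 29. RefSeq promoter windows were found for 8 of the 10 genes. Intervals are limma's, at 95%.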

Additional observations from a re-analysis of the deposited data

How the results depend on the processing

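MMP14, MMP24 and PLAU were all called in each of 21 settings, limma's reported fit included, that kept no minimum fold change. Asking also for a log2 change of 1 in size, 0 of the 10 genes, 4 of the listed genes and 1159 of all genes remained called, and 3452 of all genes at an adjusted p of 0.01. Without 1 library the calls ranged from 3887 to 5447 over all genes, from 3 to 4 of the 10 and from 27 to 31 of the listed genes. TIMP1 passed with a minimum mean of 10 (log2 fold change -0.14), in edgeR with TMM (-0.15), RLE (-0.15) or library totals (-0.17), with equal library totals (-0.17) and without mock replicate 3, and its range without 1 library was -0.17 to -0.11. TIMP1 did not pass with the GC trend removed (-0.077, adjusted p = 0.185 in limma) or in DESeq2 (adjusted p = 0.0636). MMP15 passed with the GC trend removed (0.30), also with the replicate block (0.30), and its range without 1 library was 0.032 to 0.20. MMP28 turned to 0.022 with the GC trend removed, with or without the block, and to 0.18 and 0.26 without CDO1 replicate 3 and mock replicate 2 (range -0.48 to 0.26), and TIMP2 turned to 0.0010 without mock replicate 3 (range -0.088 to 0.0010). The cause was not tested. Signs also turned for listed genes that were not called: with the GC trend removed, MMP25 (0.14) and BSG (0.012), each the same with the block; in DESeq2 HPN (0.10), which is at 0.024 in the authors' deposited values; and without 1 library MMP12 (-0.73 to 0.64), MMP25 (-0.18 to 0.097), SPOCK2 (-0.50 to 0.049), HPN (-0.67 to 0.44), TMPRSS4 (-0.50 to 0.11) and HGF (-0.80 to 0.36). The labels do not say whether the same replicate number pairs the libraries. Correlations of deviations were 0.0149, 0.0847 and -0.0025 for the same number and ran from -0.0577 to 0.0448 for unlike numbers. With 3 libraries per group they cannot decide whether the numbers pair. With the replicate block 5918 genes were called in all, 4 of the 10 and 32 listed, and TIMP1 passed (-0.14, adjusted p = 0.0275). DESeq2 called 4265 genes, and 4325 were past 0.05 in the authors' deposited table, with 3 of the 10 in each. The authors' deposited values put CDO1 itself at a log2 fold change of 0.089 (adjusted p = 0.416), against 9.18 in limma. The reason was not tested. Removing the GC trend moved the split of all calls from 2467 higher and 2762 lower to 3362 and 3033, and edgeR with library totals moved it to 2206 and 3154. MMP28 rested on 6 to 21 reads per library and RECK on 60 to 88, and the effect of depth on their calls was not tested.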

Other observations

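The genes whose log2 values over the 6 libraries were most like those of MMP14, among 10549 protein-coding genes with a mean of at least 100 normalised counts, were C1QL4 (Pearson's r = 0.999), PLXND1 (0.999), a semaphorin receptor, and PTPRE (0.999), a tyrosine phosphatase. PLXND1 was at 660 against 1199 normalised counts and C1QL4 at 87.1 against 200.3, CDO1 against mock. For PLAU they were ESRP1 (r = 0.999), a splicing regulator of epithelial cells, PPP3CA (0.999), a calcineurin subunit, and GJC1 (0.998), a gap junction protein, which was at 256 against 733 normalised counts. In a design of 2 groups any gene with a clear step between them scores high: 718 genes had an r over 0.95 with MMP14 and 724 with PLAU. These correlations are descriptions over libraries that share their groups and depths.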
